A study of Homo sapiens with 6 samples.

Results

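The plasminogen activators, matrix metalloproteinases and protease inhibitors examined here are 9 genes: PLAU, PLAUR, PLAT, SERPINB2, MMP1, MMP3, MMP9, TIMP1 and TIMP3. They were followed through the 138 sites of the deposited table, of 181135 in all, that overlap a gene body or the 50 kb on either side of it. The choice of sites used position alone, and all 138 had enough counts to be tested. By gene there were 24 sites for PLAU, 25 for PLAUR, 23 for PLAT, 4 for SERPINB2, 6 for MMP1, 2 for MMP3, 20 for MMP9, 19 for TIMP1 and 17 for TIMP3. Both MMP3 sites also belong to MMP1, its neighbour on chromosome 11.

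Open chromatin was mapped by ATAC-seq, in which a transposase inserts sequencing adapters into open DNA, in wild-type K562, an established human leukaemia line with erythroid and megakaryocytic potential. Cells received PMA, a phorbol ester used here at 25 nM, which turns on protein kinase C and which the labels link to megakaryocyte differentiation, for 0, 6 or 72 h, with 2 libraries per time. The 0 h cells are the only controls, no vehicle-treated group entered the comparison, and the medium was changed at 24 and 48 h of the long treatment. Cells of every group were detached with EDTA and prepared by the Omni-ATAC protocol. The labels do not say whether the 2 libraries of a time came from separate cultures, so p-values measure only the spread between these libraries, which may be technical.

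PLAU (urokinase) and PLAT (tissue-type plasminogen activator) are serine proteases that convert plasminogen to plasmin, and PLAUR is the receptor that holds urokinase at the cell surface. SERPINB2 is the plasminogen activator inhibitor PAI-2, MMP1 (interstitial collagenase), MMP3 (stromelysin) and MMP9 (gelatinase B) degrade extracellular matrix, and TIMP1 and TIMP3 inhibit metalloproteinases. Several of these genes are classic targets of phorbol esters, whose signal reaches AP-1, a Fos and Jun dimer that binds TGANTCA.

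The 250 bases upstream of the annotated start are shown for 4 genes, chosen because they carry an AP-1 motif or a near match, or, for TIMP3, as a promoter with neither. They are from RefSeq (GRCh38.p14), read 5′ to 3′ on the gene's strand, with TGANTCA and the near match TGAGTAA in capitals. PLAUR lies at chr19:43670170-43670419 (minus strand), SERPINB2 at chr18:63887455-63887704, TIMP1 at chrX:47582186-47582435 and TIMP3 at chr22:32801455-32801704 (plus strand).
PLAUR: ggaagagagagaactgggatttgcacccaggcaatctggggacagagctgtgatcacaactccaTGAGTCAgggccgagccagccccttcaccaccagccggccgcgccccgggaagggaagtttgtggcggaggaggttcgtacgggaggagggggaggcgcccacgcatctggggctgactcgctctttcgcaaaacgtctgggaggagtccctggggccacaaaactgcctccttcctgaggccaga
SERPINB2: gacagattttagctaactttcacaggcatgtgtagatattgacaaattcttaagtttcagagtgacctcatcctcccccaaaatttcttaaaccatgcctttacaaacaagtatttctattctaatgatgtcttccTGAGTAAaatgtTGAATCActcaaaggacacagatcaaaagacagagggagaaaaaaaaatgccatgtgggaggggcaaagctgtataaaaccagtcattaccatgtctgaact
TIMP1: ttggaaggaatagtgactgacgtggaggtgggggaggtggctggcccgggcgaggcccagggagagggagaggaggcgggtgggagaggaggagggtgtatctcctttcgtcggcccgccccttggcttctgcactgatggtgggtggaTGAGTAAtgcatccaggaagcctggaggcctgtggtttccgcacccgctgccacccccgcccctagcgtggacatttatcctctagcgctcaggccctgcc
TIMP3: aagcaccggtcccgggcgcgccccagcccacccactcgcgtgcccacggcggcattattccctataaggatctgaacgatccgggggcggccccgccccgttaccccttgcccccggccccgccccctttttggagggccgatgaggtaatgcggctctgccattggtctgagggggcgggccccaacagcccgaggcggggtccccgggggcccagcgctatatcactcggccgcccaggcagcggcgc

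Of the 9 genes, 5 matched the promoter table (PLAU, PLAUR, SERPINB2, TIMP1 and TIMP3), and PLAT, MMP1, MMP3 and MMP9 did not. Motifs were searched on both strands, and TGAGTAA was added after the sequences had been read. In PLAUR a TGANTCA match lay 186 to 180 bases upstream of the start. SERPINB2 had TGANTCA at 102 to 96 bases and TGAGTAA at 114 to 108 bases upstream, beside a TATAAA at 30 to 25 bases. TIMP1 had TGAGTAA at 101 to 95 bases, a RUNX motif, TGTGGT, at 71 to 66 bases and a GATA-factor motif, GATAA, on the other strand at 26 to 22 bases. Of the 35116 windows of the same length in the table, the AP-1 motif occurred in 6.57%, its near match in 2.21%, the RUNX motif in 11%, the GATA motif in 20.4%, the TATA box in 10.7% and the GC box in 42.6%. This GC box, GGGCGG, occurred 5 times in TIMP3, 2 times in TIMP1 and 3 times upstream of the innermost PLAU start, which lies at position 73911132. The PLAUR, TIMP1 and TIMP3 windows lay wholly inside a site of the table, and 0 of the 250 SERPINB2 bases did.

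The deposited counts summed to between 12258890 (6 h, replicate 1) and 35548737 (72 h, replicate 2) per library, and the first 6 h library was the shallowest. Levels are given as CPM, counts per unit of sequencing depth with library sizes adjusted by TMM, fold changes are log2 values ± SE from edgeR's quasi-likelihood fit to all 6 libraries, and a site was called at a Benjamini-Hochberg adjusted p under 0.05 over 177759 tested sites. Accessibility at the ends of 8 of 9 erythroid markers, summed per library, was 302 to 303 CPM at 0 h, 205 to 224 at 6 h and 114 to 116 at 72 h, with no site at KLF1. The same sum over 4 of 5 megakaryocyte markers was 56.9 to 60.2, 37.2 to 39.6 and 37.1 to 41.1 CPM, with no site at PF4. For marker lists of other cell types the highest sum was 87.4 CPM (3 of 3 epithelial genes), T cell, monocyte and macrophage, fibroblast and hepatocyte lists stayed between 4.09 and 34.8 CPM, and CD2, CD14 and ALB had no site. Within these lists CSF1R went from 5.07 and 3.73 CPM at 0 h to 14.4 and 16.6 at 72 h, PDGFRB from 2.73 and 3.49 to 5.59 and 6.91, and LYZ from 11.6 and 14.2 to 5.04 and 4.24. The part of these shifts in the results below was not tested. Scaling matters for 72 h: the median of all tested sites was 0.29 with TMM, 0.11 with DESeq2's size factors (RLE), 0.79 with total counts, -0.01 with loess offsets and 1.26 with TMM factors from sites that had a peak in every library. For most calls the number of these 5 scalings in which they held is therefore given.

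At 6 h, 41 of the 138 sites rose and 22 fell. Over all tested sites 23.4% rose and 16.8% fell, against 29.7% and 15.9% of the 138. At 72 h, 55 rose and 44 fell, or 39.9% and 31.9% beside 38.2% and 29.2% of all tested sites. The 72 h shares therefore lay near the background. Between 6 h and 72 h, 22 sites (15.9%) were higher at 72 h and 42 (30.4%) were lower, beside 22.1% and 20.9% of all tested sites. The median log2 change of the 138 was 0.13 at 6 h, 0.25 at 72 h and -0.30 from 6 h to 72 h, and over all tested sites it was 0.05, 0.29 and 0.03. All 5 scalings kept 36 of the 41 rises and 11 of the 22 falls at 6 h. At 72 h they kept 38 of 55 rises and 11 of 44 falls, and between the treated times 12 of 22 rises and 6 of 42 falls. Both comparisons with 0 h share the same 2 control libraries.

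**Figure D1:**
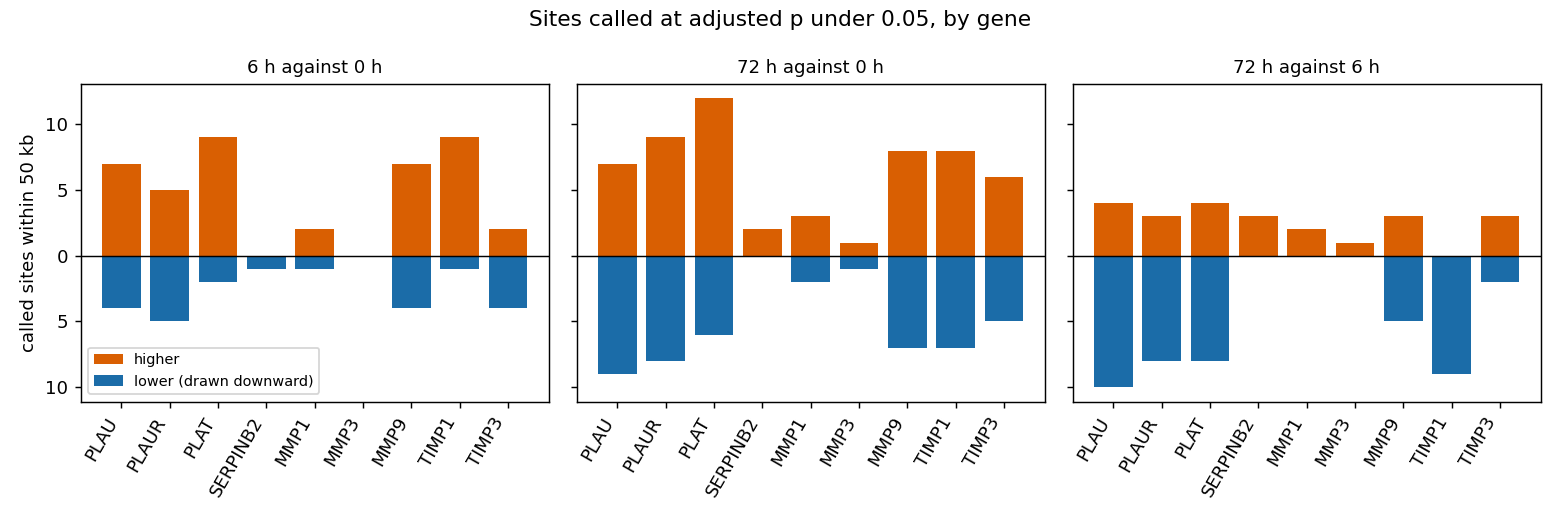
Number of sites within 50 kb of each gene called higher (upward bars, orange) or lower (downward bars, blue) at an adjusted p under 0.05, for both treated times relative to 0 h and for the treated times relative to each other. With TMM, PLAT had the most rises at 72 h, 12 of its 23 sites, and PLAT and TIMP1 shared the highest count at 6 h, 9 each. Among the rises kept in all 5 scalings, PLAT had fewer than TIMP1 at both times.

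With TMM, the calls took several courses over time. Of the 41 sites that rose at 6 h, 24 were also higher at 72 h with no call between the treated times, 8 were higher at 72 h but below their 6 h level, and 3 rose again from 6 h to 72 h. Another 5 had no call at 72 h against 0 h and were lower at 72 h than at 6 h. A late set of 13 sites had no call at 6 h and was higher at 72 h than at both earlier times. No site was called in opposite directions at 6 h and at 72 h against 0 h. The shares of these joint patterns over all tested sites are not given here, so their counts cannot be read as particular to these genes. The patterns also rest on calls between the treated times, of which 12 of 22 rises and 6 of 42 falls held in all 5 scalings. By position, among the 8 sites at the genes' own 5′ ends, 3 rose and 1 fell at 6 h and 2 rose and 4 fell at 72 h. Of 17 gene-body sites, 6 rose and 3 fell at 6 h, and 7 rose and 6 fell at 72 h. Of 51 upstream sites, 15 rose and 2 fell at 6 h, and 23 rose and 13 fell at 72 h. Downstream, 17 of 49 rose and 9 fell at 6 h, and 22 rose and 12 fell at 72 h. The 15 sites at promoters or ends of other genes had 0 rises and 7 falls at 6 h and 2 rises and 10 falls at 72 h. Over all tested sites, 23.4% rose and 16.8% fell at 6 h, and 38.2% rose and 29.2% fell at 72 h. The counts by position here, and those by gene below, are to be read beside these shares. These differences between classes were not tested.

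**Figure D2:**
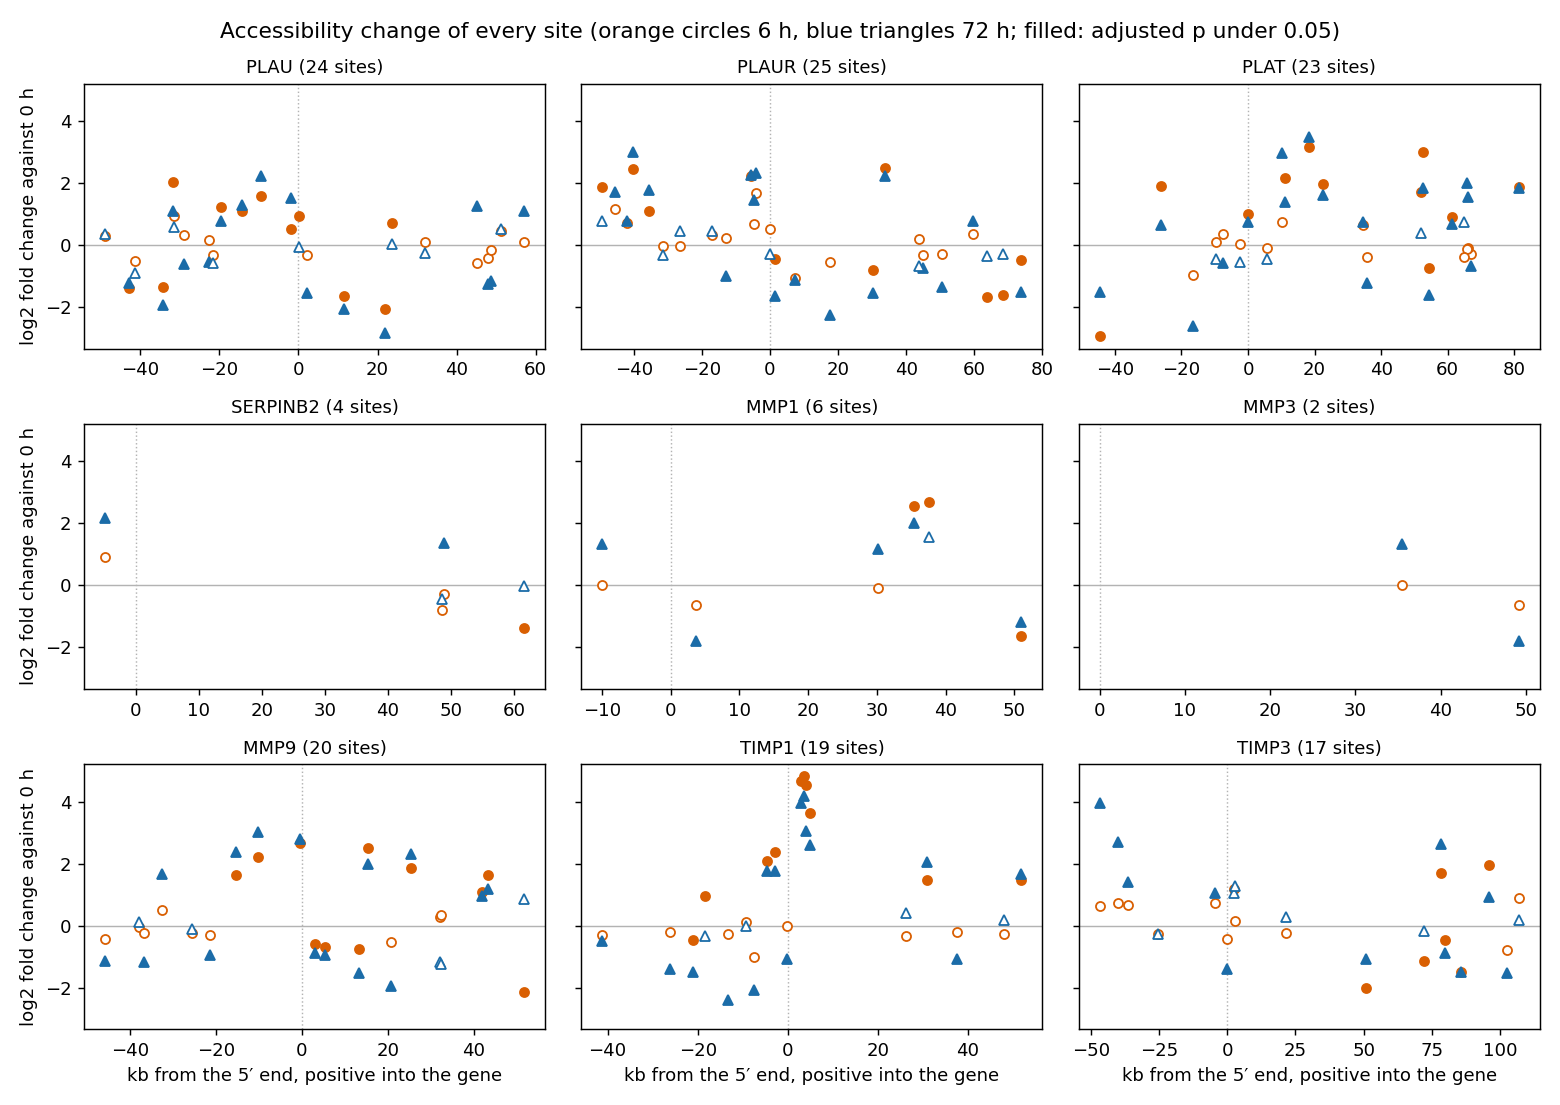
Log2 fold change against 0 h of every site (vertical axis) by the distance of its midpoint from the gene's 5′ end in kb (horizontal axis), at 6 h (orange circles) and 72 h (blue triangles), filled where the adjusted p was under 0.05. The highest points are the TIMP1 gene-body sites at 6 h, up to 4.82, and the lowest 72 h point is the PLAU site 21.8 kb downstream, at -2.83.

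PLAU, the urokinase gene (chr10:73908832-73917494, plus strand), had accessible chromatin at 2 of its annotated starts already at 0 h, and they took different courses. The site over the outermost start (chr10:73908557-73909526) had 21.2 and 19.5 CPM at 0 h, 36.8 and 40.4 at 6 h, then 20.4 and 18.5 at 72 h. Both 6 h libraries stood above the other 4, and 0 h and 72 h overlapped. Its log2 change was 0.93 ± 0.16 at 6 h (adjusted p = 7.4e-05, 5 of 5 scalings). At 72 h it was -0.06 ± 0.16 (adjusted p = 0.73) with TMM, but total counts, loess offsets and shared-peak factors gave 0.44, 0.87 and 0.90. The site over the innermost start (chr10:73910736-73911492) had 15.2 and 20.9, 14.7 and 14.2, and 7.01 and 5.28 CPM in the same order. It fell at 72 h by 1.56 on the log2 scale (SE 0.21, adjusted p = 1.3e-06, 5 of 5 scalings) and had no call at 6 h (-0.33, adjusted p = 0.22), except that without 0 h replicate 1 it reached -0.60 (adjusted p = 0.038).

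Of 12 sites upstream of PLAU, 5 rose and 3 fell at 72 h, and the pair nearest the gene was higher at 72 h than at 6 h. The site 9.4 kb upstream (chr10:73898844-73899934) had 4.22 and 3.77 CPM at 0 h, 10.6 and 13.3 at 6 h, then 20.0 and 17.1 at 72 h. Its groups did not overlap in any of the 3 comparisons, and the log2 change was 1.59 ± 0.22 at 6 h (adjusted p = 6.2e-06) and 2.22 ± 0.22 at 72 h (adjusted p = 1.8e-08), each in 5 of 5 scalings. A site 1.8 kb upstream, chosen after its values were seen, had 7.21 and 10.6, 11.8 and 13.8, and 24.2 and 27.4 CPM. Its 72 h rise of 1.52 ± 0.20 held in 5 of 5 scalings, and its 6 h value of 0.53 (adjusted p = 0.045) lost its call without 0 h replicate 1 (0.23, adjusted p = 0.43) or 6 h replicate 2 (0.34, adjusted p = 0.35). In the opposite direction, the site 21.8 kb downstream (chr10:73929948-73931281) had 37.8 and 32.0 CPM at 0 h, 9.12 and 7.87 at 6 h, then 4.99 and 4.83 at 72 h. It had the lowest 72 h value of the 138 sites, -2.83 ± 0.19 (adjusted p = 2.5e-10, 5 of 5 scalings), after -2.05 ± 0.19 at 6 h. The most accessible PLAU-window site outside its own starts was the promoter of CAMK2G, a kinase gene, which fell by 1.35 at 6 h and by 1.94 at 72 h on the log2 scale, each in 5 of 5 scalings. A weak site 31.8 kb upstream carried the highest 6 h value of the window, 2.04 ± 0.42, and its 72 h value was 1.1 (adjusted p = 0.027, 3 of 5 scalings). That call was lost without either 0 h library at nearly the same size (1.13 and 1.04, adjusted p = 0.062 and 0.11), and without 72 h replicate 1 the value was 0.64 (adjusted p = 0.31). Of the 24 sites, 7 rose and 4 fell at 6 h, and 7 rose and 9 fell at 72 h.

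PLAUR, the urokinase receptor gene (chr19:43646095-43670169, minus strand), had the most accessible site of the set just inside the gene, 1.5 kb from its start. That site (chr19:43668070-43669325) had 133 and 90.1 CPM at 0 h, 81.0 and 81.5 at 6 h, then 37.2 and 33.7 at 72 h. The 72 h libraries lay below all others, with a log2 change of -1.65 ± 0.16 (adjusted p = 1.2e-08, 4 of 5 scalings), but loess offsets gave 0.04. The 6 h value of -0.46 (adjusted p = 0.021) held in 2 of 5 scalings and was 0.05 with loess offsets. The call was lost without 0 h replicate 1 (-0.21, adjusted p = 0.29) and, at about the same size, without either 6 h library (-0.45 and -0.52, adjusted p = 0.088 and 0.061). The smaller site over the start and its TGANTCA match (chr19:43670026-43670504) had 8.32 and 10.4 CPM at 0 h, 14.5 and 12.5 at 6 h, then 7.76 and 7.71 at 72 h. Both 6 h libraries were the highest, yet the log2 value of 0.52 ± 0.21 missed the threshold (adjusted p = 0.053), and without 0 h replicate 2 it was 0.69 (adjusted p = 0.036). It was lower at 72 h than at 6 h (-0.80 ± 0.20, adjusted p = 0.0035, 2 of 5 scalings), and its 72 h value against 0 h of -0.28 (adjusted p = 0.24) became 0.69 with shared-peak factors.

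Sites 4.1 to 5.4 kb upstream of PLAUR were higher at 72 h, and of these only the outermost was called at 6 h with TMM and all 6 libraries. The nearest, 4.1 kb upstream and named after its values were seen, had 1.67 at 6 h (adjusted p = 0.064). Its 72 h value of 2.32 (adjusted p = 0.0032, 5 of 5 scalings) was 1.48 without 0 h replicate 1. Without 0 h replicate 2 the fitted values were 7.46 at 6 h and 8.10 at 72 h. Those values rest on 1 control library and are not read as sizes. The outermost, 5.4 kb upstream (chr19:43675324-43675874), had 0.585 and 0.812 CPM at 0 h, 2.81 and 3.70 at 6 h, then 3.26 and 3.54 at 72 h. All treated libraries exceeded both controls, and the log2 change was 2.22 ± 0.37 at 6 h (adjusted p = 6.1e-05) and 2.25 ± 0.36 at 72 h (adjusted p = 1.3e-05), in 5 of 5 scalings. Its neighbour 4.6 kb upstream, named after its values were seen, had 0.67 at 6 h (adjusted p = 0.07) and, without 6 h replicate 1, 0.84 (adjusted p = 0.039), and rose at 72 h by 1.44 ± 0.27 (5 of 5 scalings). Near CADM4, a cell adhesion gene, a site 33.7 kb downstream of the PLAUR start rose by 2.5 ± 0.31 at 6 h and 2.24 ± 0.30 at 72 h, and without 0 h replicate 2 these values were 3.14 and 2.87. Inside the gene, 17.7 kb from the start, accessibility fell from 7.15 and 8.69 CPM to 1.42 and 1.86 at 72 h (-2.27 ± 0.27, adjusted p = 3e-07, 5 of 5 scalings). At 6 h that site had 4.35 and 6.20 CPM (adjusted p = 0.094), and it passed the threshold without 0 h replicate 1 (-0.74, adjusted p = 0.049) or 6 h replicate 2 (-0.93, adjusted p = 0.045). The promoter of ZNF428, a zinc finger gene in the window, fell by 1.36 on the log2 scale at 72 h (4 of 5 scalings), and its 6 h value of -0.27 (adjusted p = 0.13) became -0.44 (adjusted p = 0.036) without 0 h replicate 1. Over the 25 sites, 5 rose and 5 fell at 6 h, and 9 rose and 8 fell at 72 h.

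PLAT, the tissue-type activator gene (chr8:42174718-42207565, minus strand), had the most sites with rises at 72 h under TMM. Among the rises kept in all 5 scalings, PLAT did not have the most. Its promoter site (chr8:42207369-42208031) had 4.16 and 3.34 CPM at 0 h, 6.31 and 8.38 at 6 h, then 6.49 and 5.99 at 72 h. All 4 treated libraries lay above both controls, with log2 changes of 1.00 ± 0.26 at 6 h (adjusted p = 0.0036, 4 of 5 scalings) and 0.74 ± 0.25 at 72 h (adjusted p = 0.013, 3 of 5 scalings). The 6 h call was lost without 6 h replicate 2 (0.70, adjusted p = 0.1), and the 72 h call without 0 h replicate 2 (0.58, adjusted p = 0.096) or 72 h replicate 1 (0.68, adjusted p = 0.092). Inside the gene, 18.4 kb from the start (chr8:42188854-42189467), counts of 7 and 10 at 0 h compared with 39 and 156 at 6 h, then 183 and 248 at 72 h. In CPM these were 0.455 and 0.478, 3.32 and 4.93, and 4.73 and 5.85, so that no treated library overlapped a control. The log2 change of 3.17 ± 0.39 at 6 h and 3.49 ± 0.37 at 72 h (adjusted p = 1.1e-06 and 5.7e-08) held in 5 of 5 scalings.

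Other PLAT gene-body sites, named after their values were seen, were not all alike in time. The strongest, 11.1 kb from the start (chr8:42196040-42196881), went from 5.72 and 8.03 CPM to 31.7 and 30.8 at 6 h and then 15.8 and 20.2 at 72 h. The log2 change was 2.17 ± 0.20 at 6 h and 1.38 ± 0.20 at 72 h, each in 5 of 5 scalings, and the value from 6 h to 72 h was -0.80 ± 0.18 (adjusted p = 0.0015, 3 of 5 scalings). The site next to it, 10.2 kb from the start (chr8:42197062-42197594), had 0.520 and 0.812, 0.341 and 1.58, and 5.07 and 5.75 CPM. There 0 h and 6 h overlapped and only the 72 h libraries were high, with 2.98 ± 0.42 against 0 h (adjusted p = 2.7e-06) and 2.25 ± 0.38 against 6 h (adjusted p = 8e-05), both in 5 of 5 scalings. Its 6 h value of 0.73 (adjusted p = 0.25) was 1.21 (adjusted p = 0.035) without 6 h replicate 1. The end of AP3M2, an adaptor complex gene downstream of PLAT, was the most accessible site outside the promoter and fell by 0.73 at 6 h and by 1.60 at 72 h on the log2 scale, in 5 of 5 scalings. Of the 23 sites, 9 rose and 2 fell at 6 h, and 12 rose and 6 fell at 72 h.

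The table had no site within 1000 bases of the annotated start of SERPINB2 (chr18:63887705-63903888, plus strand), the PAI-2 gene, and its 4 window sites were weak. The site nearest the gene, 4.8 kb upstream (chr18:63882536-63883238), had counts of 8 and 9 at 0 h, 13 and 24 at 6 h, then 77 and 97 at 72 h. In CPM these were 0.520 and 0.430, 1.11 and 0.759, and 1.99 and 2.29, and the 3 groups did not overlap. The log2 value was 0.91 ± 0.51 at 6 h (adjusted p = 0.16) and 2.18 ± 0.44 at 72 h (adjusted p = 0.00019, 5 of 5 scalings). The promoter of HMSD, a neighbouring serpin-family gene, had 1.69 and 1.58, 0.597 and 0.632, and 1.63 and 1.56 CPM. It fell at 6 h (-1.39 ± 0.44, adjusted p = 0.014, 4 of 5 scalings), a call lost without 6 h replicate 2 at about the same size (-1.50, adjusted p = 0.07), and at 72 h its value was -0.03 with TMM and 0.93 with shared-peak factors. None of the 4 sites had a deposited peak at 0 h or 6 h, and all 4 had one in both 72 h libraries. Over all sites of the table the share with a peak was 31.7% and 35.7% at 0 h and 32.8% and 47.9% at 6 h. At 72 h it was 70.7% and 72.6%. The HMSD site gained its peaks with like CPM at 0 h and 72 h.

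The collagenase and stromelysin genes MMP1 (chr11:102789919-102798160) and MMP3 (chr11:102835801-102843609), both on the minus strand, also had no promoter site in the table. The most accessible of their sites, 9.9 kb upstream of MMP1 and 35.5 kb downstream of the MMP3 start (chr11:102807750-102808439), had counts of 12 and 32 at 0 h, 18 and 31 at 6 h, then 112 and 132 at 72 h. In CPM these were 0.780 and 1.53, 1.53 and 0.980, and 2.90 and 3.11. The early times overlapped and the 72 h libraries lay above both, with 1.34 ± 0.37 at 72 h (adjusted p = 0.0033, 4 of 5 scalings), or 1.94 without 0 h replicate 2. Among the other MMP1 sites, all weak and named after their values were seen, a pair 37.6 and 35.4 kb downstream of the start, towards MMP10, rose at 6 h by 2.70 ± 0.71 and 2.57 ± 0.67 on the log2 scale, from 8 and 0 counts and from 5 and 2 counts at 0 h. These calls were lost without 0 h replicate 2 (1.53 and 1.85, adjusted p = 0.063 and 0.066). Without 0 h replicate 1 the second was 3.51, and the first had 0 counts in its only control, so that it has no interpretable size. Of the 6 MMP1 sites, 2 rose and 1 fell at 6 h, and 3 rose and 2 fell at 72 h.

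MMP9, the gelatinase B gene (chr20:46008908-46016561, plus strand), gained accessibility just upstream of the gene. The site ending 254 bases before its start (chr20:46008029-46008654) had 0.390 and 0.669 CPM at 0 h, 2.05 and 4.58 at 6 h, then 3.72 and 3.89 at 72 h. Every treated library exceeded both controls, and the log2 change was 2.68 ± 0.43 at 6 h (adjusted p = 3.9e-05) and 2.79 ± 0.42 at 72 h (adjusted p = 5.6e-06), in 5 of 5 scalings. Without 6 h replicate 2 the 6 h value was 1.84 (adjusted p = 0.011). A site 10.3 kb upstream (chr20:45998278-45998870) had 0.650 and 0.239, 2.05 and 1.93, and 3.62 and 3.30 CPM, without overlap between the groups. It rose by 2.22 ± 0.46 at 6 h and 3.03 ± 0.43 at 72 h in 5 of 5 scalings, with ranges of 1.60 to 2.96 and 2.4 to 3.82 when a 0 h library was left out. A pair of gene-body sites, 3.0 and 5.3 kb from the start and named after their values were seen, went the other way. They had 16.0 and 14.8 CPM and 10.6 and 12.9 CPM at 0 h, and 8.30 and 8.39 CPM and 6.31 and 5.94 CPM at 72 h. Their 72 h values of -0.88 ± 0.19 and -0.94 ± 0.22 held in 3 of 5 scalings, and shared-peak factors gave 0.09 and 0.03. The promoters of ZNF335 and SLC12A5, a zinc finger gene and a chloride transporter gene in the window, fell at 72 h by 1.16 and 1.53 on the log2 scale, the first in 3 of 5 scalings with 0.05 from loess offsets, the second in 5 of 5. At SLC12A5 the 6 h value of -0.73 (adjusted p = 0.0042) lost its call without 6 h replicate 2 (-0.62, adjusted p = 0.057). Of the 20 MMP9 sites, 7 rose and 4 fell at 6 h, and 8 rose and 7 fell at 72 h.

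**Figure D3:**
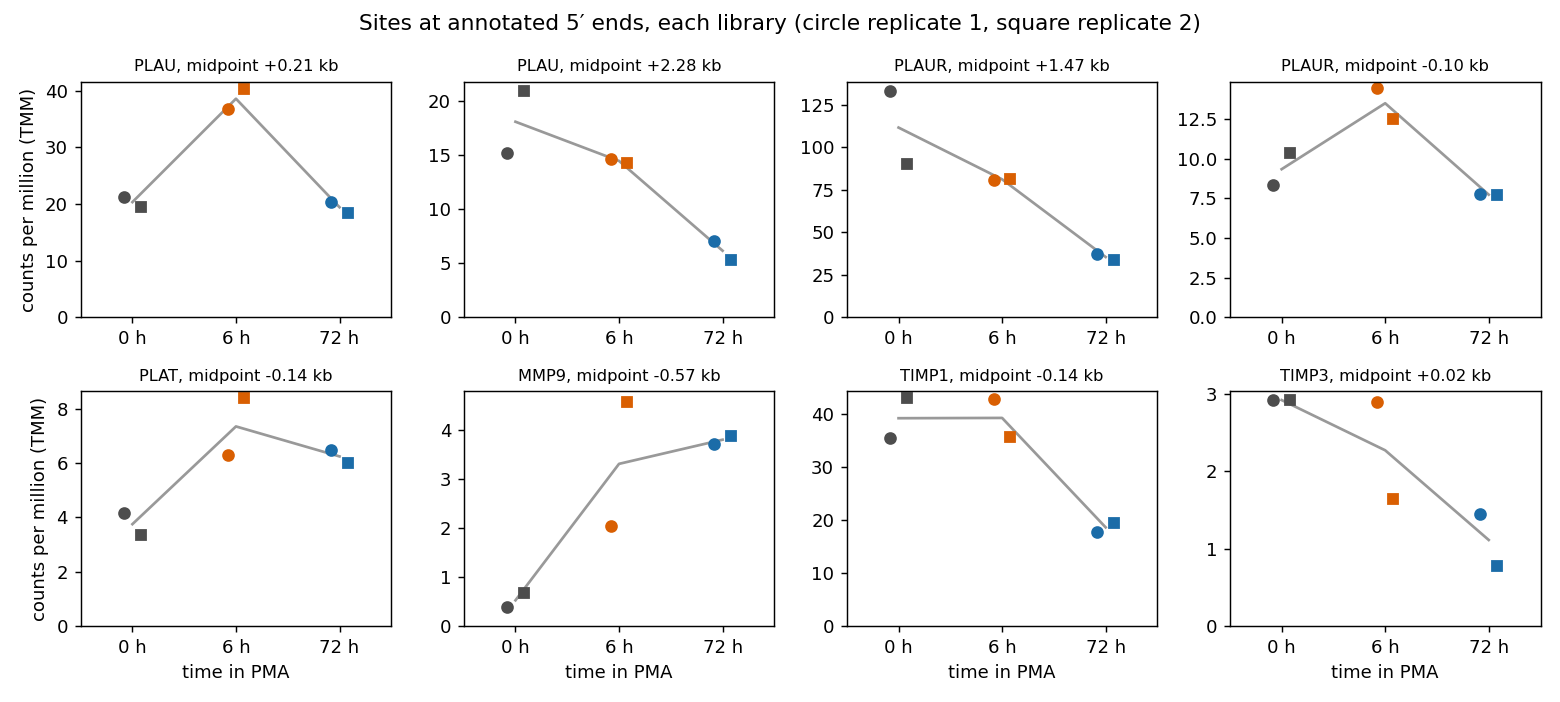
CPM (TMM) of the 8 sites at annotated 5′ ends in each library at 0, 6 and 72 h, with the line through the group means; each panel gives the midpoint's distance from the outermost 5′ end. At MMP9 and PLAT the 4 treated libraries lie above both 0 h libraries, and the outer PLAU site peaks at 6 h with 36.8 and 40.4.

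TIMP1, the secreted metalloproteinase inhibitor gene (chrX:47582436-47586789, plus strand, within SYN1), showed the highest fold changes of the set, at its 3′ end and not at its promoter. The promoter site (chrX:47581899-47582693) had 35.5 and 43.1 CPM at 0 h, 42.9 and 35.7 at 6 h, then 17.9 and 19.5 at 72 h. The first 2 groups overlapped (-0.01 ± 0.16, adjusted p = 0.98), and the 72 h value of -1.07 ± 0.16 (adjusted p = 4.8e-06) held in 3 of 5 scalings, with 0.00 from loess offsets. A run of 4 sites spanning 2715 bases, with gaps of 86 to 224 bases, began 2488 bases beyond the promoter site, the first 3 inside the gene and the last just past its end. Of these the rule for naming picked the second (chrX:47585867-47586081), and the other 3 were named after their values were seen.

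In the second site of the run the counts were 4 and 0 at 0 h, 50 and 80 at 6 h, then 66 and 108 at 72 h. The fitted log2 change was 4.82 ± 0.66 at 6 h (adjusted p = 5e-06) and 4.20 ± 0.67 at 72 h (adjusted p = 1.1e-05), each in 5 of 5 scalings. With so few counts at 0 h the size is imprecise: leaving out 0 h replicate 2 gave 3.62 and 3.01, and leaving out replicate 1, which leaves a single control at 0, gave fitted values of 9.53 and 8.97 that are no bound. The first site (chrX:47585182-47585642) had 10 and 2, 129 and 214, and 193 and 236 counts and rose by 4.67 ± 0.45 and 3.96 ± 0.46, with 3.72 to 6.37 and 3.01 to 5.71 when a 0 h library was left out. The third (chrX:47586228-47586738) had 7 and 13, 209 and 263, and 161 and 213 counts and rose by 4.52 ± 0.40 and 3.06 ± 0.41, the 6 h value being 3.92 without 6 h replicate 1. It was lower at 72 h than at 6 h (-1.47 ± 0.29, adjusted p = 0.00031, 5 of 5 scalings). The site past the gene's end (chrX:47586825-47587896) had the most counts, 25 and 41 at 0 h, 358 and 477 at 6 h, then 397 and 506 at 72 h. In CPM it had 1.62 and 1.96, 30.5 and 15.1, and 10.3 and 11.9, so that the 6 h libraries differed from each other but lay above all others. Its log2 change was 3.63 ± 0.30 at 6 h (adjusted p = 6.3e-09) and 2.62 ± 0.30 at 72 h (adjusted p = 1.5e-07), in 5 of 5 scalings.

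None of the 4 sites had a deposited peak at 0 h, and the authors' fold enrichments of the peaks found there later were low, from 2.21 to 4.13, beside 6.70 to 15.8 at the promoter. Of the 3 sites inside the gene, 1 had a peak in 6 h replicate 1 and 0 in 6 h replicate 2. At 72 h, 1 had a peak in replicate 1 and 3 in replicate 2. In the authors' deposited table the log2 changes at 6 h were 4.42, 4.4, 4.26 and 3.39 from the first site to the last, and at 72 h they were 3.70, 3.76, 2.77 and 2.37. Upstream of TIMP1, sites 4.7 and 2.7 kb from the start, named after their values were seen, rose by 2.10 ± 0.47 and 2.38 ± 0.28 at 6 h in 5 of 5 scalings. Without 0 h replicate 2 the first of these was 2.75. The most accessible neighbour was the promoter of ARAF, a kinase gene, which fell at 72 h by 1.49 on the log2 scale (4 of 5 scalings). Its 6 h value of -0.45 (adjusted p = 0.018) lost its call without 0 h replicate 2 (-0.33, adjusted p = 0.14) or 6 h replicate 1 (-0.35, adjusted p = 0.15). A site 13.3 kb upstream fell at 72 h by 2.4 (SE 0.42, adjusted p = 3.5e-05, 5 of 5 scalings), from 2.01 and 2.20 CPM at 0 h and 2.05 and 1.58 at 6 h to 0.466 and 0.330. Of the 19 TIMP1 sites 9 rose and 1 fell at 6 h, 8 rose and 7 fell at 72 h, and 0 were higher and 9 lower at 72 h than at 6 h. Over all tested sites 22.1% were higher and 20.9% lower at 72 h than at 6 h. Most of the 9 TIMP1 falls from 6 h to 72 h did not hold in all 5 scalings.

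**Figure D4:**
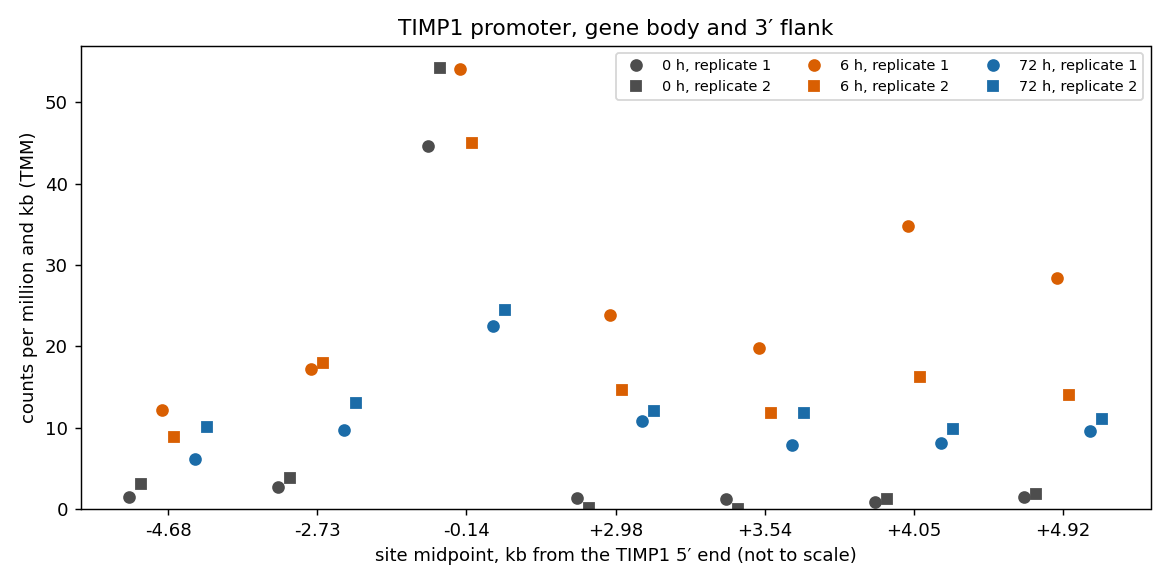
Accessibility per length (CPM per kb, TMM) of the 7 TIMP1 sites nearest the gene in each library, in order of distance from the 5′ end (0 h grey, 6 h orange, 72 h blue; circles replicate 1, squares replicate 2). At the 4 sites from +2.98 to +4.92 kb the 0 h libraries lie near 0 and all treated libraries above them, and at the promoter (-0.14 kb) 0 h and 6 h overlap.

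TIMP3, the inhibitor bound to extracellular matrix (chr22:32801705-32863041, plus strand, within SYN3), had a weakly accessible promoter and late distal sites. The promoter site (chr22:32801380-32802068) had 2.92 and 2.91 CPM at 0 h, 2.90 and 1.64 at 6 h, then 1.45 and 0.778 at 72 h. The 72 h libraries were the lowest, with -1.39 ± 0.37 (adjusted p = 0.0025, 4 of 5 scalings), a call lost without 72 h replicate 2 (-1.01, adjusted p = 0.072). Far upstream, 46.8 kb from the start (chr22:32754621-32755201), the counts were 5 and 1 at 0 h, 5 and 6 at 6 h, then 104 and 115 at 72 h. The early times overlapped (adjusted p = 0.57), and the 72 h libraries stood apart, with 3.97 ± 0.58 against 0 h (adjusted p = 3.8e-06) and 3.34 ± 0.53 against 6 h (adjusted p = 3.6e-05), in 5 of 5 scalings. Without a 0 h library the first value was 5.69 or 3.04. A site 40.2 kb upstream, named after its values were seen, had the same order of levels, with 0.325 and 0.526, 0.511 and 0.854, and 3.0 and 2.78 CPM, and rose at 72 h by 2.71 ± 0.44.

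Downstream, 95.9 kb from the TIMP3 start, a site peaked at 6 h, with 2.60 and 2.39, 8.52 and 10.8, and 4.68 and 4.69 CPM. It rose by 1.98 ± 0.26 at 6 h (5 of 5 scalings) and 0.91 ± 0.26 at 72 h (4 of 5), and the step from 6 h to 72 h was -1.06 ± 0.23. Shared-peak factors gave -0.39 with no call for this step. The most accessible TIMP3 site, 80.0 kb downstream of the start, had -0.46 at 6 h (adjusted p = 0.023) and -0.86 at 72 h (adjusted p = 5.4e-05), but the 72 h value was 0.15 with loess offsets and 0.10 with shared-peak factors. Its 6 h call was lost without 0 h replicate 2, at the same size (-0.46, adjusted p = 0.056), or without 6 h replicate 1 (-0.37, adjusted p = 0.16). The lowest called 72 h value with a mean of at least 1 CPM, -1.52 ± 0.35, lay 102.5 kb from the start and held in 4 of 5 scalings, with -0.55 and no call from shared-peak factors. Of the 17 sites 2 rose and 4 fell at 6 h, and 6 rose and 5 fell at 72 h. Besides the site 95.9 kb from the start, the 6 h rise was 1.70 at another downstream site. That value was 0.08 without 6 h replicate 2. A 72 h fall of -1.06 at a gene-body site was -0.51 without 0 h replicate 1.

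Ratios of counts between sites of the same library do not depend on scalings that apply 1 factor per library, which is 4 of the 5 used here. Loess offsets move sites of a library by different amounts, and the ratios do not allow for them. These site groups were chosen after their values were seen, so the ratios are a description with no test. At TIMP1 the 4 gene-body and 3′ sites together held 0.0842 and 0.0621 of the promoter site's counts at 0 h. The ratio was 1.48 and 0.915 at 6 h, then 1.18 and 1.29 at 72 h. At PLAU the sites 9.4 and 1.8 kb upstream rose relative to the innermost start from 0.752 and 0.687 to 1.53 and 1.91 and then to 6.31 and 8.43. The outer PLAU start site moved from 1.39 and 0.932 of the inner one to 2.51 and 2.84 and then to 2.91 and 3.50. At PLAUR the 3 sites 4.1 to 5.4 kb upstream went from 0.336 and 0.382 of the start site's counts to 0.459 and 0.722 and then to 1.38 and 1.56. The MMP9 sites 15.2, 10.3 and 0.6 kb upstream held 0.0929 and 0.0760 of the counts of the gene-body pair at 0 h, 0.440 and 0.610 at 6 h, then 0.961 and 0.985 at 72 h. With all 8 sites upstream of MMP9 the ratio was 0.773 and 0.762, 1.45 and 1.53, and 2.22 and 2.28. For PLAT the gene-body sites 22.6, 18.4, 11.1 and 10.2 kb from the start held 2.09 and 3.53 times the promoter's counts at 0 h, 6.81 and 5.63 at 6 h, then 4.92 and 6.57 at 72 h. With the remaining gene-body site, 5.7 kb from the start, included, the PLAT ratio was 2.75 and 4.06, 7.11 and 5.89, and 5.18 and 6.82. In each of these ratios both 72 h libraries exceeded both 0 h libraries, and so did both 6 h libraries.

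**Figure D5:**
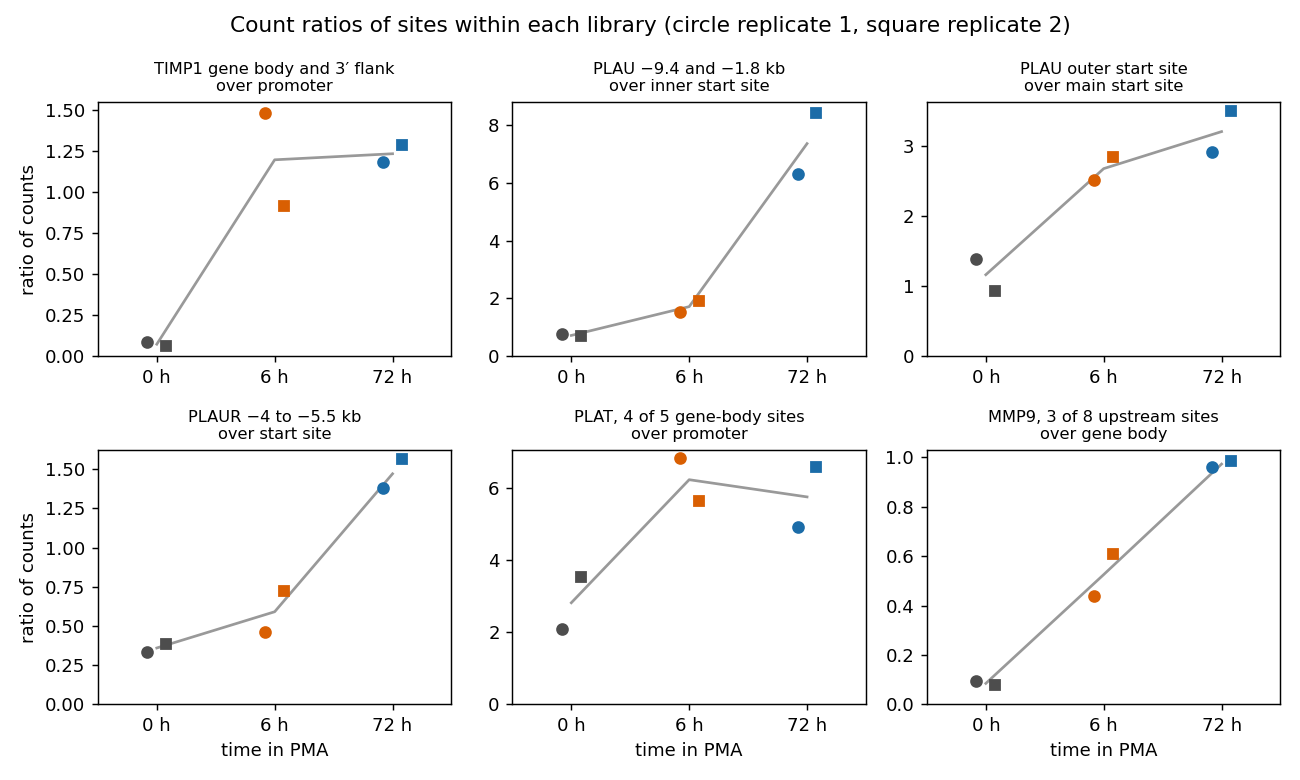
Ratio of the counts of 2 groups of sites within each library at 0, 6 and 72 h, with the line through the group means (circles replicate 1, squares replicate 2; the PLAT panel leaves out 1 gene-body site and the MMP9 panel 5 upstream sites). The TIMP1 ratio goes from under 0.1 at 0 h to about 1 in all treated libraries, and the PLAU upstream ratio continues to rise between 6 h (1.53 and 1.91) and 72 h (6.31 and 8.43).

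Set against length, the promoters ranged widely at 0 h. Mean levels per kb were 89.0 CPM at the inner PLAUR site, 49.4 at TIMP1, 23.9 and 21.0 at the inner and outer PLAU sites, 19.5 at the PLAUR start, 5.66 at PLAT, 4.24 at TIMP3 and 0.846 at MMP9. At 72 h the order was PLAUR inner (28.2), TIMP1 (23.5), PLAU outer (20.0), PLAUR start (16.1), PLAT (9.41), PLAU inner (8.12), MMP9 (6.08) and TIMP3 (1.62). Deposited peaks, which were called per library, overlapped 54 and 56 of the 138 sites at 0 h (39.1% and 40.6%), 64 and 88 at 6 h (46.4% and 63.8%), then 102 and 102 at 72 h (73.9% in each). Over all sites of the table the share was 31.7% and 35.7%, 32.8% and 47.9%, and 70.7% and 72.6%, lower in 6 h replicate 1 than in 0 h replicate 2 and highest at 72 h. Peaks were present in all 6 libraries at 35 of the 138 sites and in none at 16. At the edge of the 50 kb limit, the member farthest out lay 225 bases inside it, near PLAUR, with a 72 h value of -1.50, and the nearest site beyond it lay 242 bases outside, near TIMP3, with 3.42.

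At promoters of other genes of these pathways, falls outnumbered rises at 72 h with TMM. Of 49 such genes, 30 had an annotated start in the promoter table and 23 of these had a site there. Among their 29 tested promoter sites, 6 (20.7%) rose and 9 (31.0%) fell at 6 h, and 4 (13.8%) rose and 20 (69.0%) fell at 72 h, of which 4 and 6 held in all 5 scalings. Over all tested sites, promoters or not, 23.4% rose and 16.8% fell at 6 h and 38.2% rose and 29.2% fell at 72 h. The 72 h median of the promoter sites was -1.04, where all tested sites had 0.29. No share over promoters in general is given here, so the falls cannot be read as particular to these pathways. Near the member genes, the 15 sites at promoters or ends of other genes had a 72 h median of -1.23. Of the 726 tested sites within 50 kb of the other pathway genes, 182 (25.1%) rose and 124 (17.1%) fell at 6 h, near the shares of all tested sites. At 72 h, 225 (31.0%) rose and 269 (37.1%) fell. The promoter of TFPI2, a Kunitz-type inhibitor of plasmin and other serine proteases, went from 2.86 and 2.53 CPM at 0 h to 11 and 11.1 at 6 h, then 12.5 and 11.6 at 72 h. It rose by 2.04 ± 0.24 and 2.16 ± 0.23, each in 5 of 5 scalings. Among promoters of coagulation initiation genes, the lowest 72 h value was at a TFPI site, -1.69 (5 of 5 scalings). TIMP4, a further TIMP, rose by 0.98 ± 0.23 and 1.75 ± 0.22 in 5 of 5 scalings, while RECK, a membrane-bound inhibitor of metalloproteinases, had -0.15 and -0.25 with no call. Among the serpins the highest 72 h value was at SERPINA5, the protein C inhibitor, and the lowest at SERPINI1, neuroserpin (2.80 and -1.61). The membrane-type metalloproteinase gene MMP15 had the lowest 72 h value of its family, -2.08 (5 of 5 scalings), among 4 tested promoter sites that all fell. For plasminogen, its receptors and binding proteins, 0 of 9 tested promoter sites rose and 6 fell at 72 h. For other surface and secreted proteases, 0 of 6 rose and 6 fell. No site lay at the starts of MMP7, MMP8, MMP10, MMP14, MMP27, PLG or ADAM8.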

How the data were processed

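The authors deposited read counts per site for 6 libraries, whole numbers that served as raw counts, and a log2 fold change and an adjusted p-value per site. One peak list per library gives a score, a fold enrichment and -log10 p and q, deposited by the authors. The submitters' processing notes name Trim Galore 0.4.3, BWA 0.7.17, SAMtools 1.9, deepTools 3.0.1, MACS2, bedtools 2.26, DESeq and the build hg38, without roles. Whether read ends were shifted for the enzyme's offset is not given in the sources used here. Deposited starts were taken as 0-based and are printed 1-based. Of them, 20.6% equalled a deposited peak start and 1.32% lay 1 base above such a start. The authors' class names were not used: of 21243 sites in the class upLate, 71.13% had a higher authors' log2 at 72 h.

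The 9 genes, the lists and the comparisons were chosen with earlier results of these data known. Sites overlapping a gene body or 50 kb on either side were members, and those within 1000 bases of an annotated 5′ end were promoter sites. RefSeq gave gene ends, and the strands of PLAT, MMP1, MMP3 and MMP9 come from general knowledge. Counts were fitted with edgeR 4.0.16 in R 4.3.3 (TMM, filterByExpr, quasi-likelihood F test, 3 time groups, all 6 libraries), leaving 177759 sites and removing 3376, with a biological coefficient of variation of 0.166. No library was a copy of its replicate: the chi-square statistic between the pair, relative to its degrees of freedom, was 4.67 (0 h), 4.32 (6 h) and 3.50 (72 h). Where a group had few or 0 counts, precision is limited by counting error, and reads without molecular identifiers are not independent molecules.

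Sites named in the text were, per gene, all promoter sites, the most accessible other site, and the called sites with the largest 6 h, largest 72 h and lowest 72 h log2 change among those with a mean of at least 1 CPM. Others are said to be named after their values were seen. Alternatives were other scalings, DESeq2 1.42.0, no filter, a stricter call, other windows, a replicate block and leaving out each library. One marker list is not reported here.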

Additional observations from a re-analysis of the deposited data

Results flagged for a closer look

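A few deposited peaks inside the gene windows overlapped no site of the count table, so the comparisons above do not use them. A 72 h peak (replicate 1) in the PLAU window, at chr10:73883514-73883715, had the authors' -log10 q of 9.46. In the PLAUR window, a 6 h peak (replicate 2) at chr19:43708599-43708798 had 8.98 and a 72 h peak (replicate 2) at chr19:43662455-43662654 had 6.59. In the PLAT window, a control peak (0 h, replicate 2) at chr8:42251663-42251914 had 4.47. Each of these peaks was called in 1 library.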

How the results depend on the processing

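Counts of calls depended on the window, which also sets how many sites are counted. The sizes of the alternative lists are not given here, so these counts cannot be read as shares of sites called. With 25 kb there were 27 rises and 13 falls at 6 h, 31 rises and 28 falls at 72 h, and 9 sites higher at 72 h than at 6 h. With 100 kb, 62 rose at 6 h, 96 rose and 71 fell at 72 h, and 43 were higher and 69 lower at 72 h than at 6 h. Keeping only sites nearest to a member gene gave 17 and 6, 22 and 17, and 8 and 16. The stricter call (adjusted p under 0.01 and an absolute log2 above 1) gave 10 falls at 6 h, 29 falls at 72 h, and 8 higher and 17 lower between the treated times. Shared-peak TMM factors gave 11 falls at 6 h, 83 rises and 14 falls at 72 h, and 51 higher and 10 lower between the treated times. Total counts gave 28 falls at 72 h, with 36 higher and 25 lower, and DESeq2 gave 12 higher. The cause of these shifts was not tested, except that other windows hold other sites. Shares called over all tested sites are not given for any of these settings or for those of the next paragraph. Those counts therefore cannot be read as particular to the member sites. With shared-peak factors the 72 h median was 1.26 over all tested sites and 1.21 over the member sites.

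Leaving out a library gave 14 to 21 falls at 6 h (lowest without 6 h replicate 1), 9 to 28 sites higher and 23 to 46 lower at 72 h than at 6 h (9 and 27 without 72 h replicate 1, 10 and 23 without 72 h replicate 2). Same-numbered libraries had deviations correlated at 0.0820, 0.0533 and 0.0854, so the numbers were not taken as pairs. With a replicate block the counts were 43 and 23, 56 and 45, and 24 and 45.

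Signs changed at some sites. With loess offsets the 72 h value against 0 h was 0.87 at the outer PLAU start, 0.041 at the inner PLAUR site (0.054 at 6 h), 0.047 at ZNF335, 0.0039 at the TIMP1 promoter and 0.15 at the TIMP3 site 80.0 kb downstream. Against 6 h it was 0.18 at CAMK2G, 0.00080 at AP3M2, 0.0012 at ZNF335 and 0.41 at that TIMP3 site. Shared-peak factors gave 0.90 at the outer PLAU start, 0.69 at the PLAUR start, 0.93 at HMSD, 0.088 and 0.029 at the MMP9 gene-body sites and 0.10 at that TIMP3 site against 0 h, and 0.090 at CAMK2G, 0.27 at that TIMP3 site and 0.042 at the TIMP1 site 2.7 kb upstream against 6 h. Total counts gave 0.44 at the outer PLAU start. Depth limits sites with few counts at 0 h, above all near MMP1, SERPINB2 and in the TIMP1 gene body.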
